A study of Mus musculus with 6 samples.

Results

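The myostatin and activin receptor pathway is taken here as 9 genes chosen by name, and all 9 had a row among the 11768 genes of the deposited table. They are the ligand Mstn, the type II receptors Acvr2a and Acvr2b, the type I receptors Acvr1b and Tgfbr1, the receptor-activated Smads Smad2 and Smad3, the common partner Smad4 and the inhibitory Smad7. The study measured quadriceps RNA of mice on normal chow with 3 libraries labelled mDrp1HET and 3 labelled Control. The mDrp1HET mice (mouse model Drp1-KD) are heterozygous for a muscle-specific knockout of Drp1, the GTPase that divides mitochondria, and the Control mice are f/f, carrying the floxed gene without the knockout label. Library names and a column header carry the letters mck or MCK, which the labels do not spell out, and no label states the promoter behind the deletion or the age or sex of the mice. The labels do not say that each library is a separate animal, so p-values measure the spread between libraries. They mention 2 pools without giving the pool of each library, so pools could not be compared.

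Myostatin is a secreted TGF-beta family protein made by muscle fibres, and mice that lack it grow very large muscles. It binds a type II activin receptor, which then phosphorylates a type I receptor, and the type I receptor phosphorylates Smad2 and Smad3. These join Smad4 and enter the nucleus, while Smad7 blocks the type I receptor and marks it for breakdown. Activins and Gdf11 use the same receptors.

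Control replicate 1 and mDrp1HET replicate 3 hold 1 library. The reads of the one were exactly 2 times those of the other in 96.3% of genes, and the 9 members differed by at most 0.00037 log2 CPM between these columns. This shared library has no known group, so each result is given for the 2 mDrp1HET and 2 Control libraries that remain (the 4-library comparison) and for the columns as labelled. Reads summed over the listed genes ranged from 10394761 to 15782298 in these mDrp1HET libraries and from 25019293 to 28664508 in these Control libraries. All 8 muscle fibre markers had rows. Together they made up 10.8% to 11.5% of the signal in mDrp1HET libraries, against 15.6% in both Control libraries and 16.6% in the shared library. Their median 4-library log2 fold change was -0.15. Of the 8, 1 lay above 0, where 69.6% of all genes did, and 4 lay below Control without overlap, where 11.3% did. In bulk RNA, fewer cells of a type and less RNA per cell cannot be told apart, and the part of this difference in the values below was not tested. Dnm1l, the gene of Drp1, did not separate the groups. It stood at 7.30 and 6.73 log2 CPM in mDrp1HET libraries against 6.95 and 6.87 in Control libraries, with 6.69 in the shared library (4-library log2 fold change 0.11, 95% interval -0.40 to 0.62). The directions below therefore refer to libraries labelled mDrp1HET.

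RefSeq promoters on GRCm38.p6 (250 bases before to 50 after the start) were taken for 6 of the 9 members, omitting Smad2, Smad4 and Smad7. Those of 3 members are shown because they set the ligand beside the receptors with the lowest p-values in each receptor class. They run 5′ to 3′ on the gene's strand, and capitals mark the E-box CANNTG, the motif of myogenic factors, and the Smad box CAGAC on either strand.
Mstn, chr1:53061390-53061689, plus strand: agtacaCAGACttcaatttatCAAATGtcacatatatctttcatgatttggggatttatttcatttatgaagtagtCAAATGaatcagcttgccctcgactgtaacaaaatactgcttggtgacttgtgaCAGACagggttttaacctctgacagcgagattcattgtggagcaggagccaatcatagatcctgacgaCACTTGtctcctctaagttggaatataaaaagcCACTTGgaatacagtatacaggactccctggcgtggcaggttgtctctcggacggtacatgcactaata
Acvr2a, chr2:48813859-48814158, plus strand: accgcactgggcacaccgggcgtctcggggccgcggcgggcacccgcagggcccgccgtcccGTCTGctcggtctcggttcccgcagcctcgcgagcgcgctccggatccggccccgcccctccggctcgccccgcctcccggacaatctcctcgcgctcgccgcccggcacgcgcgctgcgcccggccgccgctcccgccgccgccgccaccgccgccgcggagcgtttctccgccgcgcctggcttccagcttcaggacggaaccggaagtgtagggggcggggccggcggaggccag
Tgfbr1, chr4:47352972-47353271, plus strand: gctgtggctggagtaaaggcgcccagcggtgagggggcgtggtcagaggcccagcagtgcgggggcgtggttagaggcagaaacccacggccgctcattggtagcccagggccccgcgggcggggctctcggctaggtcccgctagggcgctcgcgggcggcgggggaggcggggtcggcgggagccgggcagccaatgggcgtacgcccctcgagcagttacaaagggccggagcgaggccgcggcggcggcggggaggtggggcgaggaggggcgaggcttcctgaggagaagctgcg
The Mstn window had 41.3% GC, 4 E-boxes, the nearest 52 and 19 bases before the start, 2 Smad boxes and a TATAAA 29 bases before the start. The Acvr2a window had 80.3% GC, 1 Smad box and 3 GC boxes (GGGCGG on either strand), and the Tgfbr1 window 74.7% GC and 2 GC boxes, with 0 E-boxes in both of these windows. RefSeq lists another start of Tgfbr1 inside the gene, whose window (chr4:47385966-47386265) had 52.0% GC, 1 E-box, 1 Smad box and 0 GC boxes. None of the marked motifs overlapped in the windows shown. Of 32851 promoter windows of the same length, 72.3% held an E-box, 49.6% a Smad box, 35.7% a GC box and 13.6% a TATAAA on either strand.

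Over the pathway, 3 receptor genes stood highest in the libraries labelled mDrp1HET relative to Control, Acvr2a by 1.60-fold, Tgfbr1 by 1.46-fold and Acvr1b by 1.41-fold, and Smad3 was the furthest below Control at 0.758-fold. None of the 9 members passed the threshold of an adjusted p of 0.05 with limma in either comparison (0 of 9 in each), and voom on recovered reads also called 0 of 9. Over all genes 0.187% were called in the 4-library comparison, 0.144% above and 0.0425% below Control, and 0% in the labelled one. These 22 calls, 17 above and 5 below Control, depended on the settings, with 0 after median centring or without the intensity trend, 1 with quantile normalization and 51 with voom. Leaving out 1 library gave 77 to 325 calls, with 31 above and 46 below Control without Control replicate 3, and 146 above and 153 below without mDrp1HET replicate 1. At an unadjusted p under 0.05 the 4-library comparison had 2 members, Acvr2a and Tgfbr1, both above Control, where 16.6% of all genes reached that level, and the labelled comparison had 0, where 3.9% did. In the 4-library comparison 7 members did not overlap between groups, 5 above and 2 below Control, where 49.9% of all genes do not overlap, 38.6% above and 11.3% below. The fold changes of 7 of 9 members lay above 0, as did those of 69.6% of all genes. The median log2 fold change of the 9 members was 0.29, beside 0.20 for all genes, and in the labelled comparison 0.19 beside 0.13. With 1 library on both sides, all 9 labelled fold changes lay nearer 0 than the 4-library ones.

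**Figure D1:**
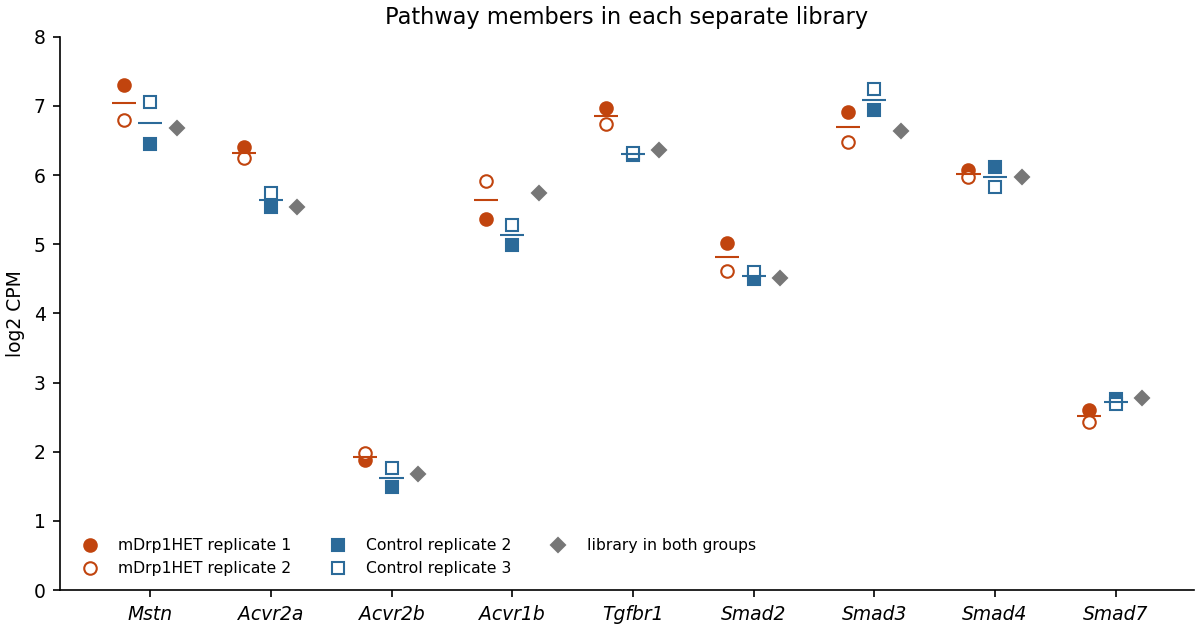
Level of each member in log2 CPM (vertical axis) in mDrp1HET replicates 1 and 2 (circles), Control replicates 2 and 3 (squares) and the library held in both groups (diamonds), with short lines at the means of 2 libraries. Acvr2a, Acvr2b, Tgfbr1 and, by a narrow step, Smad2 stand above both Control libraries and the shared library in both mDrp1HET libraries. The Mstn points of the groups interleave.

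Mstn (Entrez 17700, chromosome 1, 53061640 to 53068079) stood at 7.30 and 6.79 log2 CPM in mDrp1HET libraries, against 6.45 and 7.06 in Control libraries, and at 6.68 in the shared library. The groups overlapped, with the highest value in mDrp1HET replicate 1 and the lowest in Control replicate 2. The 4-library comparison gave a difference of 0.29 log2 CPM (95% interval -0.28 to 0.86, SE 0.26, limma adjusted p = 0.598), and the labelled one 0.19 (SE 0.22). Without Control replicate 2 it was -0.018. The interval covers fold changes from 0.823 to 1.81, so neither a modest gain nor a modest loss of Mstn transcript was detectable with these libraries.

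The pattern of Mstn over the 5 separate libraries, as log2 CPM centred on each gene's mean, was closest in Uhmk1, Man1c1, Alg12, Gfra2 and Trmt44. Their root mean square differences from Mstn were 0.050, 0.061, 0.063, 0.066 and 0.075 on the log2 scale. That all 5 were highest in mDrp1HET replicate 1 and lowest in Control replicate 2, like Mstn, follows from this choice by likeness.

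The type II receptors bind the ligand first. Acvr2a (Entrez 11480, chromosome 2, 48814109 to 48903264) stood at 6.40 and 6.25 log2 CPM in mDrp1HET libraries, against 5.54 and 5.75 in Control libraries, and at 5.53 in the shared library. Both mDrp1HET libraries lay above the other 3, and the gap between the groups exceeded the spread within each. The 4-library log2 fold change was 0.68 (SE 0.21, 95% interval 0.21 to 1.15, unadjusted p = 0.00829), which did not pass over all genes (limma adjusted p = 0.188). As labelled it was 0.45 (SE 0.23, adjusted p = 0.753). The adjusted p lay between 0.082 and 0.726 over the alternatives in the 4-library comparison.

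Acvr2b (Entrez 11481, chromosome 9, 119401583 to 119442148), the type II receptor that binds myostatin most tightly, was a low transcript with 58 and 41 reads in mDrp1HET libraries and 80 and 85 in Control libraries. It stood at 1.88 and 1.98 log2 CPM in mDrp1HET libraries, against 1.49 and 1.77 in Control libraries, and at 1.67 in the shared library. The groups did not overlap, but the difference lay within its error, with a 4-library log2 fold change of 0.31 (SE 0.35, 95% interval -0.47 to 1.08). With quantile normalization it was close to 0.

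The type I receptors carry the signal to the Smads. Tgfbr1 (Entrez 21812, chromosome 4, 47353222 to 47414926), also the type I receptor of TGF-beta, stood at 6.97 and 6.74 log2 CPM in mDrp1HET libraries, against 6.29 and 6.32 in Control libraries, and at 6.36 in the shared library. The Control libraries and the shared library lay close together and both mDrp1HET libraries above them. The 4-library log2 fold change was 0.55 (SE 0.21, 95% interval 0.095 to 1.003, unadjusted p = 0.022, limma adjusted p = 0.243), and the labelled one was 0.37 (SE 0.18).

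Acvr1b (Entrez 11479, chromosome 15, 101174072 to 101213684), the type I receptor that myostatin shares with activins, stood at 5.36 and 5.91 log2 CPM in mDrp1HET libraries, against 4.997 and 5.28 in Control libraries, and at 5.74 in the shared library. The groups did not overlap, although mDrp1HET replicate 1 was only just above Control replicate 3, and the shared library lay within the mDrp1HET values. In the 4-library comparison its log2 fold change stood at 0.50 (SE 0.25, limma adjusted p = 0.344, 95% interval -0.055 to 1.05). Leaving out single libraries moved it between 0.22 and 0.77.

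**Figure D2:**
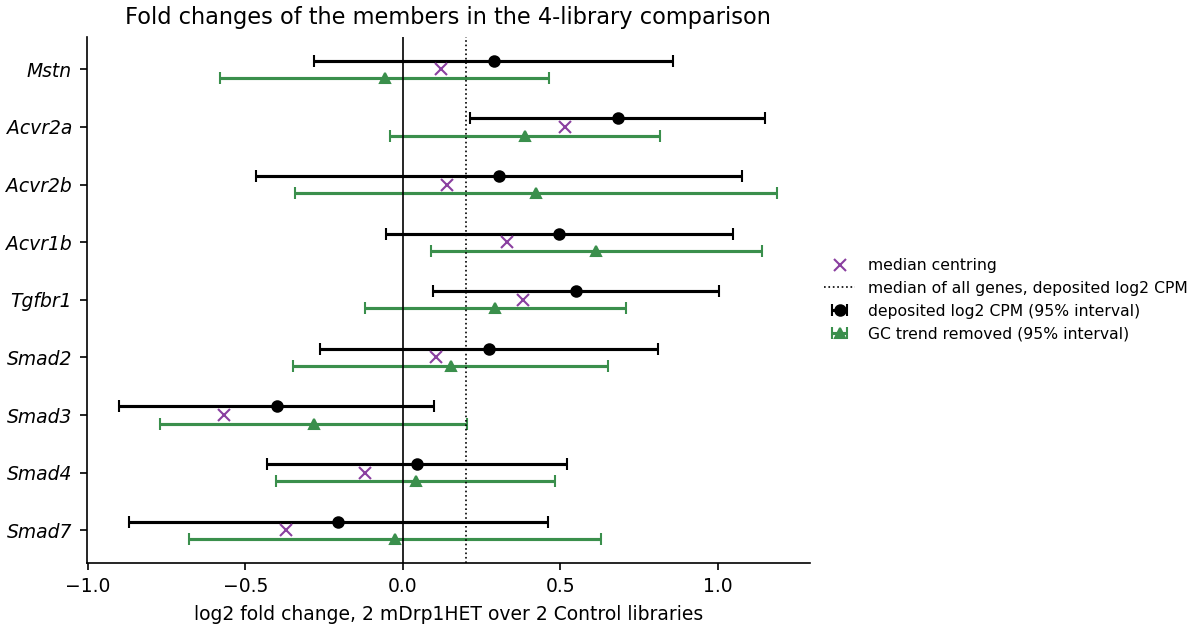
Log2 fold change of each member (horizontal axis, 2 mDrp1HET over 2 Control libraries) from the deposited log2 CPM (black circles), with the trend on transcript GC content taken out of every library (green triangles), both with 95% intervals, and after median centring (crosses). The black intervals of Acvr2a and Tgfbr1 lie above 0, and with the GC trend removed that of Acvr1b does instead.

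Smad3 and Smad2 are the Smads that these receptors phosphorylate. Smad3 (Entrez 17127, chromosome 9, 63646766 to 63757994) stood at 6.91 and 6.47 log2 CPM in mDrp1HET libraries, against 6.94 and 7.24 in Control libraries, and at 6.64 in the shared library. The groups did not overlap, by the narrow gap between mDrp1HET replicate 1 and Control replicate 2, and the shared library lay within the mDrp1HET values. Between the 4 libraries the log2 fold change came to -0.40 (SE 0.23, limma adjusted p = 0.395, 95% interval -0.90 to 0.10), and leaving out single libraries moved it between -0.62 and -0.18.

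Smad2 (Entrez 17126, chromosome 18) stood at 5.02 and 4.62 log2 CPM in mDrp1HET libraries, against 4.49 and 4.60 in Control libraries, and at 4.51 in the shared library. The groups did not overlap, by the narrow gap between mDrp1HET replicate 2 and Control replicate 3. The log2 fold change of Smad2 was 0.27 (SE 0.25, limma adjusted p = 0.598), carried by mDrp1HET replicate 1, without which it was 0.071. Smad4 (Entrez 17128, chromosome 18), the common partner, varied least of the 9, with a range of 0.29 log2 CPM over the 5 separate libraries. It stood at 6.07 and 5.97 log2 CPM in mDrp1HET libraries, against 6.12 and 5.83 in Control libraries, and at 5.97 in the shared library, with a log2 fold change of 0.046 (SE 0.22, 95% interval -0.43 to 0.52).

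Smad7 (Entrez 17131, chromosome 18), the inhibitor that the pathway itself induces in many cells, stood at 2.61 and 2.43 log2 CPM in mDrp1HET libraries, against 2.76 and 2.69 in Control libraries, and at 2.78 in the shared library. Both mDrp1HET libraries were the lowest of the 5, by a small step. The 4-library difference of -0.20 log2 CPM (95% interval -0.87 to 0.46, SE 0.30, limma adjusted p = 0.765) rests on 96 and 56 reads in mDrp1HET libraries and 194 and 161 in Control libraries.

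Ratios between members within a library do not depend on a scaling factor for the whole library, but the members of a pair can differ in GC content. The log2 difference of Smad3 and Smad2 was 1.89 and 1.86 in mDrp1HET libraries, against 2.45 and 2.64 in Control libraries, and 2.14 in the shared library. The mDrp1HET libraries agreed within 0.04 and lay 0.67 below the Control mean, and the shared library lay between the groups. With each library's trend on GC content removed, the group difference was -0.44. The log2 difference of Acvr2a and Acvr2b was 4.52 and 4.27 in mDrp1HET libraries, against 4.06 and 3.98 in Control libraries, and 3.86 in the shared library. The mean difference between the groups of 0.38 became -0.034 with the GC trend removed (transcripts of 39.9% and 54.4% GC). For Acvr1b and Tgfbr1 it became 0.32 in place of -0.052. For Acvr1b and Tgfbr1 the groups overlapped, with -1.61 and -0.83 in mDrp1HET libraries and -1.29 and -1.04 in Control libraries. They also overlapped for Smad3 and Smad7, with 4.31 and 4.04 in mDrp1HET libraries and 4.18 and 4.55 in Control libraries. These 4 pairs were chosen after the values were seen and were not tested.

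**Figure D3:**
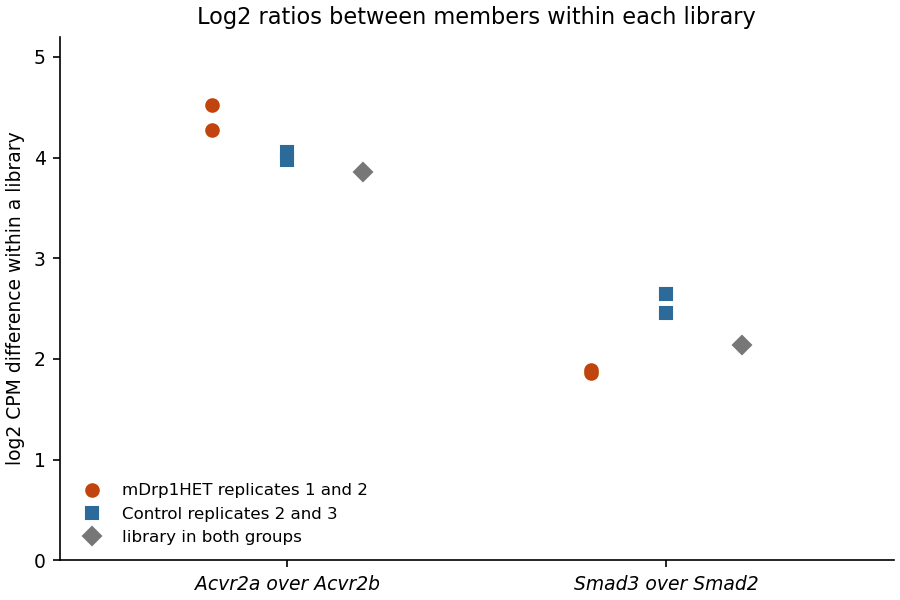
Log2 CPM difference between a pair of members within each library (vertical axis) for mDrp1HET replicates 1 and 2, Control replicates 2 and 3 and the library held in both groups. The Smad3 over Smad2 value is lowest in the mDrp1HET libraries (1.89 and 1.86), and the shared library (2.14) lies between the groups. Only the pairs whose groups did not overlap are shown, Smad3 over Smad2 and Acvr2a over Acvr2b. With the GC trend removed, the group difference of -0.67 for Smad3 over Smad2 became -0.44, and that of 0.38 for Acvr2a over Acvr2b became -0.034.

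Per kilobase of transcript, Mstn was the most abundant member, at 5.42 ± 0.33 log2 CPM per kb (SD, n = 5 separate libraries), and it did not overlap any other. Smad3 (4.49 ± 0.30), Smad4 (4.23 ± 0.11) and Tgfbr1 (4.01 ± 0.30) followed, and Acvr2a (3.39 ± 0.41) and Acvr1b (3.31 ± 0.37) came next. Neighbours in this order from Smad3 to Acvr1b had overlapping ranges. Smad2 (1.63 ± 0.22), Smad7 (0.56 ± 0.14) and Acvr2b (0.092 ± 0.19) were the lowest and did not overlap their neighbours. The order was the same when the union of exons was used as the length. Transcript lengths were those of the longest RefSeq-linked GENCODE M21 transcript, which may not be the form used in muscle.

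Fold changes in these libraries varied with the GC content of the transcript, and the members span that range. The median 4-library log2 fold change was 0.48 over the 1198 genes under 42% GC and 0.016 over the 3163 genes at 54% or more. Mstn (38.1% GC), Acvr2a (39.9%) and Tgfbr1 (41.0%) fall in the lowest range, where Acvr2a (0.68) and Tgfbr1 (0.55) lay above the median of 0.48 and Mstn (0.29) below it. Smad3 (53.1%), Acvr1b (53.5%), Acvr2b (54.4%) and Smad7 (56.9%) are GC-rich, and Smad2 (44.9%) and Smad4 (49.4%) lie between.

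With each library's GC trend removed, the 4-library log2 fold change was 0.39 for Acvr2a (95% interval -0.042 to 0.82), 0.29 for Tgfbr1 (-0.12 to 0.71) and -0.057 for Mstn. Acvr1b then had the highest value of the 9, 0.61 (95% interval 0.089 to 1.14, unadjusted p = 0.026, limma adjusted p = 0.335). Acvr2b was then at 0.42, Smad2 at 0.15, Smad4 at 0.040, Smad7 at -0.024 and Smad3 at -0.28. Again 0 of 9 passed. Setting the library medians equal put the median of all genes at 0.035 in place of 0.20. It left Acvr2a at 0.51 and Smad3 at -0.57 and turned Smad4 to -0.12.

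**Figure D4:**
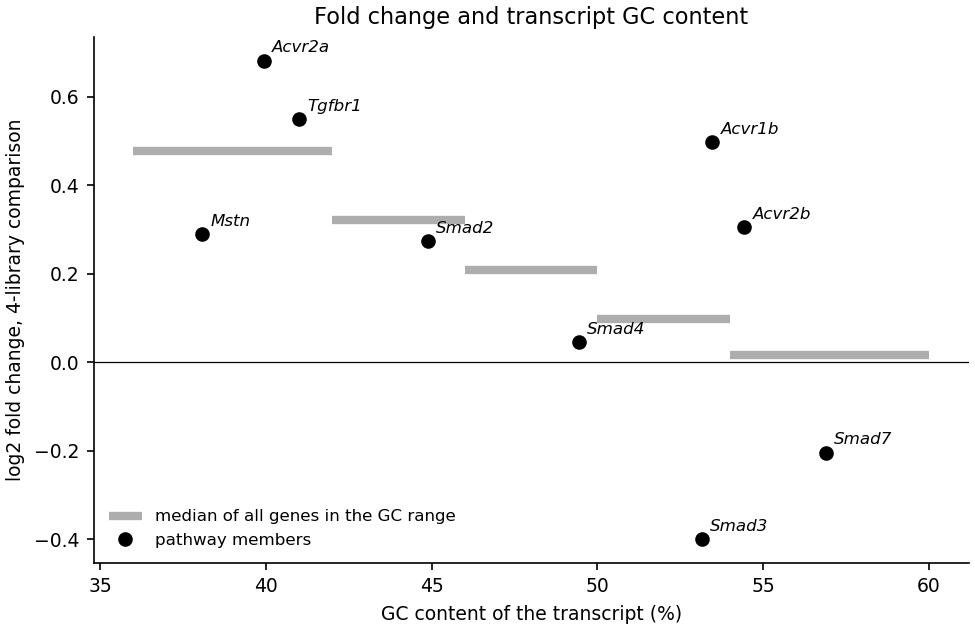
Log2 fold change of the 9 members in the 4-library comparison (vertical axis) against the GC content of their transcripts in percent (horizontal axis). Grey bars are medians of all genes in 5 GC ranges, of which the outermost are open-ended. The bars step down from 0.48 to 0.016, and Acvr1b and Smad3 lie furthest from the bar of their range.

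The wider TGF-beta family was examined with 61 listed genes, of which 49 had rows. Inhba, Inhbb, Inha, Tgfb1, Bmp2 and Bmp7 were among those not analysed here. With limma 0 of 49 passed in either comparison, and with voom also 0. At an unadjusted p under 0.05 there were 9 above and 2 below Control in the 4-library comparison, where 13.3% of all genes were above and 3.26% below, and 1 above in the labelled comparison, where 3.04% of all genes were. That split depended on the scaling: median centring gave 5 above and 4 below among the 49, beside 1083 above and 893 below among all genes, and quantile normalization also 5 and 4, beside 1038 and 913. The deposited values gave 1565 above and 384 below among all genes. With the GC trend removed it was 8 above and 0 below, and without Control replicate 3 it was 1 and 1. The median log2 fold change of the 49 was 0.16, beside 0.20 for all genes. Fold changes of the wider genes named below are given without removal of the GC trend. Of these genes, Acvr1c (40.1% GC), Bmp5 (40.5%) and Skil (41.0%) fall under 42% GC, where the median of all genes was 0.48. Furin (60.3%), Bmp6 (57.8%), Wfikkn2 (55.6%), Id3 (55.6%), Cdkn1a (54.6%) and Pmepa1 (54.5%) lie at 54% or more, where it was 0.016.

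Among 11 extracellular binding and processing genes, 6 lay above 0 and 5 below in the 4-library comparison. Fst, follistatin, which traps myostatin and activins, stood at 3.01 and 3.34 log2 CPM in mDrp1HET libraries, against 2.59 and 1.63 in Control libraries, and at 2.44 in the shared library (log2 fold change 1.07, SE 0.37, limma adjusted p = 0.212). Fstl1, a secreted follistatin-like protein, had 0.73 (SE 0.23) and Dcn, the matrix proteoglycan decorin, which can bind myostatin and TGF-beta, 0.54 (SE 0.27), between 0.14 and 0.93 when single libraries were left out. Furin, the protease that cuts the myostatin propeptide, stood at 4.23 and 4.66 log2 CPM in mDrp1HET libraries, against 5.09 and 5.03 in Control libraries, and at 5.12 in the shared library (log2 fold change -0.62, SE 0.24, adjusted p = 0.253). Wfikkn2, another binder of myostatin, was at -0.11.

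Of 9 other receptor genes, Acvr1c, a further type I receptor for activins, stood at 3.78 and 3.49 log2 CPM in mDrp1HET libraries, against 2.90 and 2.16 in Control libraries. Its log2 fold change was 1.11 (SE 0.32, limma adjusted p = 0.169), and the shared library at 3.63 lay within the mDrp1HET values. Tgfbr3, the coreceptor betaglycan, stood at 6.14 and 6.24 log2 CPM in mDrp1HET libraries, against 5.40 and 5.32 in Control libraries and 5.71 in the shared library (log2 fold change 0.83, SE 0.21, adjusted p = 0.126). Bmpr1b and Tgfbr2, the type II receptor of TGF-beta, had 0.58 (SE 0.26) and 0.45 (SE 0.22). Leaving out Control replicate 2 brought Fst and Acvr1c just under the threshold (adjusted p = 0.048 and 0.046), and leaving out mDrp1HET replicate 1 did so for Tgfbr3 (0.047), each with 1 library in a group. Those fits called 147 and 299 of all 11768 genes, against 22 with all 4 libraries.

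Among 6 ligands, Bmp4 had a log2 fold change of 0.84 (SE 0.33) and Bmp6 one of -0.76 (SE 0.35), neither past the threshold (limma adjusted p = 0.251 and 0.307), with Bmp5 at 0.35 and Tgfb2 at 0.16. Leaving out single libraries moved Bmp4 between 0.51 and 1.18 and Bmp6 between -1.14 and -0.39. Gdf11, the ligand most like myostatin, was at -0.15 (SE 0.29). Of 15 other Smads and regulators, Smad5, which serves BMP receptors, and Trim33, a ubiquitin ligase that binds Smads, had 0.52 (SE 0.22) and 0.53 (SE 0.22), and the corepressor Skil 0.51 (SE 0.28, between 0.20 and 0.81 with single libraries left out). Pmepa1, a TGF-beta target that restrains Smad2 and Smad3, had -0.59 (SE 0.25, limma adjusted p = 0.277). A further 8 genes were listed as controlled in other cells by receptors of the wider family, BMP receptors included. Of these, Cdkn1a had 0.73 (SE 0.34), Id2 0.72 (SE 0.51), Tgfbi 0.55 (SE 0.25) and Id3 0.52 (SE 0.41). Ctgf, a classical TGF-beta target, was at -0.056. The groups overlapped for Id2 and Id3, and Id2 had 70 and 21 reads in mDrp1HET libraries and 76 and 31 in Control libraries. With single libraries left out, Id2 ranged from 0.16 to 1.29, Id3 from 0.012 to 1.02 and Tgfbi from 0.28 to 0.82.

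**Figure D5:**
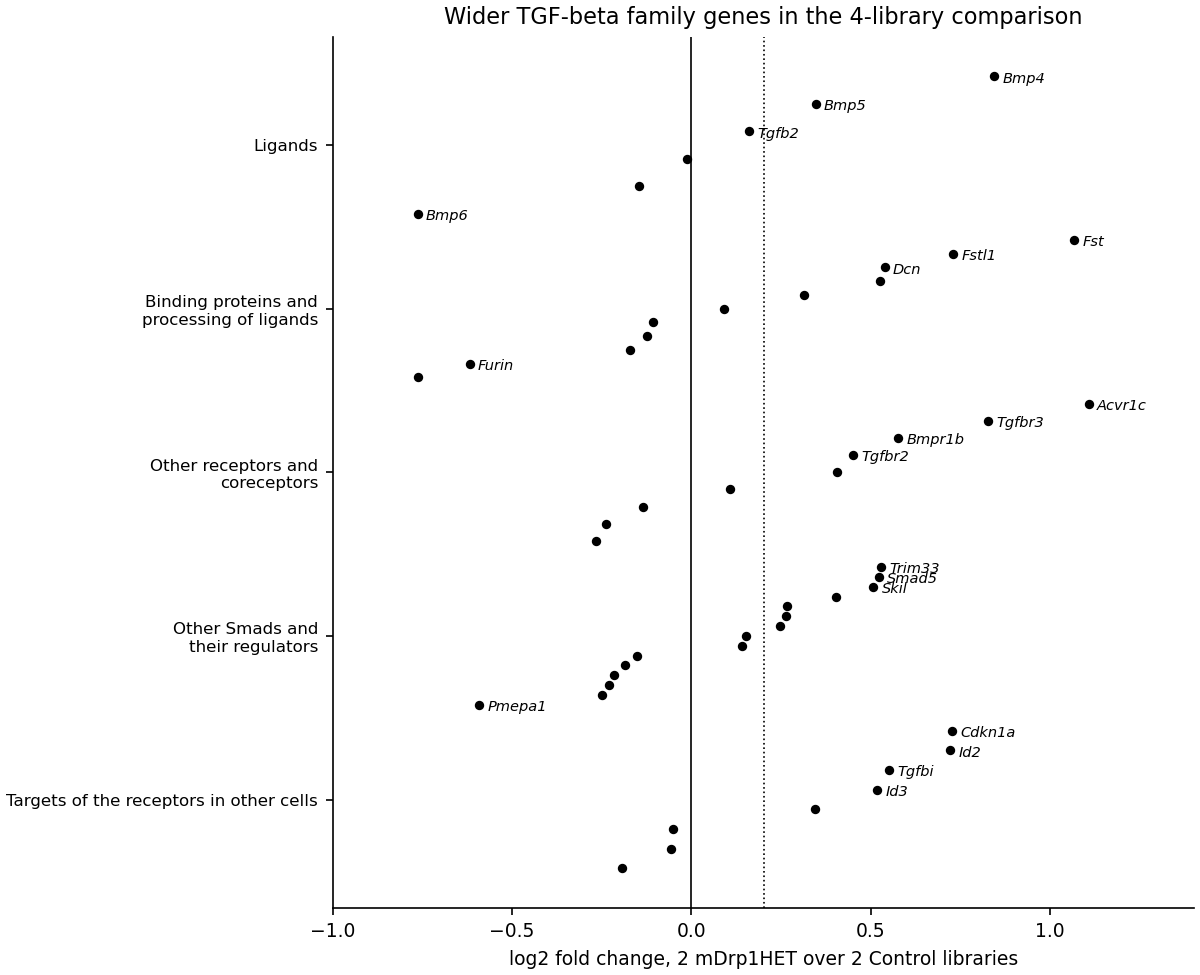
Log2 fold change of the 49 wider TGF-beta family genes (horizontal axis, 2 mDrp1HET over 2 Control libraries), grouped by role, with names for up to 4 genes of lowest p in each role. The dotted line is the median of all genes, 0.20, and points lie on both sides of it in every role.

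Markers of other cells of the muscle piece also differed between these libraries, although 0 of 33 measured markers, fibre markers included, passed the threshold with limma or voom in the 4-library comparison, and 14 had an unadjusted p under 0.05, where 16.6% of all genes did. All 8 fibro-adipogenic progenitor markers had 4-library fold changes above 0, where 69.6% of all genes did, and 7 lay above the all-gene median. Their summed level was 1460 to 1597 CPM in mDrp1HET libraries, against 828 to 1043 CPM in Control libraries. Of 7 measured macrophage markers 6 lay above 0 and above the all-gene median. Their sums were 259 to 279 CPM in mDrp1HET libraries and 143 to 207 CPM in Control libraries. All 6 endothelial markers lay below 0, with overlapping sums of 161 to 245 CPM in mDrp1HET libraries and 192 to 299.8 CPM in Control libraries. All 3 measured smooth muscle markers lay below 0 (median log2 fold change -0.68), with overlapping sums of 42.6 to 75.0 CPM in mDrp1HET libraries and 56.3 to 184 CPM in Control libraries. The satellite cell markers Pax7, Myf5 and Calcr were not analysed here. Several of the wider genes, such as Dcn, Fstl1 and Tgfbi, are made by connective tissue cells, and the part of these cells in the values was not tested.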

How the data were processed

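Ribosomal RNA was depleted and stranded total RNA libraries (TruSeq) were sequenced on an Illumina HiSeq instrument, per the labels' protocols. The authors deposited 1 table of log2 CPM per gene and library, filtered so that its lowest value was 0.029, with an unadjusted p-value per gene from a test not given in the sources used here, which was not used. FastQC, DESeq2 1.30.0 and the build GRCm38 are named in the submitters' processing notes, and neither the aligner nor the counter is given in the sources used here.

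Whole reads came back from these values for 100% of entries (tolerance 0.01 reads, prior 0.25). The test was limma 3.58.1 (R 4.3.3, intensity trend, two-sided) on log2 CPM over all 11768 genes, with Benjamini-Hochberg adjustment and a threshold of 0.05, as labelled and without the shared library. The alternatives tried were equal library medians, quantile normalization, log2(CPM + 1) and log2(CPM + 0.1), minimum means of 1 and 3 log2 CPM, no trend, voom on recovered reads, removal of the GC trend (loess, span 0.3, 11211 genes with a transcript) and leaving out each library. The fit was also run on simulated independent normal log2 values without a GC trend or depth differences, so that run could not check the fit for these. Members, lists and comparisons were chosen with earlier results of these data known. Of the wider list, genes past the threshold and up to 4 of lowest p per role are named. Wfikkn2, Gdf11 and Ctgf, the entry for Ccn2, were added after their values were seen. Counts include 1 listed gene whose values are not reported here.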

Additional observations from a re-analysis of the deposited data

How the results depend on the processing

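The count of members past the threshold was 0 under every alternative run, in both comparisons. It was out of 9 members, or out of 7 with the minimum mean of 3 log2 CPM. The count of wider family genes past the threshold was 0 in the labelled comparison under every alternative. In the 4-library comparison it was between 0 and 2 when single libraries were left out, and 0 under the other alternatives. The 4 fits with a library left out called 147 genes of all without Control replicate 2, 77 without Control replicate 3, 299 without mDrp1HET replicate 1 and 325 without mDrp1HET replicate 2, against 22 with all 4 libraries, and the cause was not tested. Of the members' fold changes, 237 of 248 values under alternatives kept their direction, which the settings fixed in part. The minimum means and the fit without the trend leave each fold change as it is. The labelled comparison rests on the same 4 libraries, with the shared library on both sides. Removal of the GC trend turned Mstn to -0.057 in the 4-library and -0.038 in the labelled comparison. Smad4 turned to -0.12 and -0.081 with median centring and to -0.090 and -0.059 with quantile normalization, in the same order, and Tgfb2 to -0.0051 and -0.0069 with these in the 4-library comparison. When single libraries were left out of the 4-library comparison, Mstn ranged from -0.018 to 0.60, Smad4 from -0.10 to 0.19, Tgfb2 from -0.041 to 0.36 and Bmp5 from -0.044 to 0.74, and in the labelled comparison Smad4 ranged from -0.043 to 0.10. Without Control replicate 1 or mDrp1HET replicate 3 the shared library stands in 1 group only, and Acvr2a was then 0.42 and 0.72. The minimum mean of 3 log2 CPM removed Acvr2b and Smad7, so no value was computed. Leaving out a library in the 4-library comparison leaves 1 library in a group, assumed to vary like the others. No paired analysis was possible because the labels give no replicate numbers that the groups share. Acvr2b and Smad7 had 41 to 96 reads in mDrp1HET replicates 1 and 2, and the part of depth in their errors was not tested.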
